A study of Mus musculus with 12 samples.

Results

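The genes described here encode the nuclear subunits of respiratory complexes II, III, IV and V, together with cytochrome c. They were defined by symbol, with earlier results of these data known. The rule took 24 subunits by name, and the 17 remaining as every symbol starting with Atp5, leaving out pseudogene symbols and numbered copies. This gave 41 genes, of 26639 features in the table of white adipose tissue (WAT) and 22851 in that of the cultures, and all 41 were in both tables and passed the filter on low counts. Of them, 4 belong to complex II, 9 to complex III, 10 to complex IV and 17 to complex V (ATP synthase), and 1 is Cycs. Bulk RNA was sequenced from WAT of wild-type (WT) mice and of mice in which Xap5 was deleted by a Cre under the adiponectin promoter (cKO), both labelled D42, read as day 42, and from adipocyte cultures of WT and knockout (KO) genotype after 8 days of adipogenic induction. The cultures were started from preadipocytes of subcutaneous WAT of newborn WT or cKO pups and were induced with insulin, dexamethasone and IBMX. Each of the 4 groups held 3 libraries. The adiponectin promoter is active in mature adipocytes, so other cells of the tissue, and cells of a culture that have not differentiated, are not targeted. The depot of the adult tissue and the sex of the mice are not given in the labels. Nor do the labels tell whether each library had its own animal or culture, so p-values measure the spread between these libraries, which may be technical.

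Respiratory complexes sit in the inner mitochondrial membrane. Complex II passes electrons from succinate to ubiquinone, complex III passes them on to cytochrome c, and complex IV passes them to oxygen. Complexes III and IV pump protons, and complex V uses the returning protons to make ATP. Complex II is encoded wholly in the nucleus, while the other complexes join nuclear subunits to a few made in the mitochondrion. In adipocytes this machinery provides energy for lipid synthesis and turnover, and in brown fat it is coupled to heat production.

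Promoters of respiratory genes are known for sites of a small set of factors, and the stretches below show motif matches in genes whose values follow, with Atp5g1 as a gene without one. They come from RefSeq on GRCm38.p6 and are written 5′ to 3′ on the gene's strand. They are limited to bases before an annotated transcript start that no GENCODE exon covers. For Atp5g3 (chr2:73908447-73912464) that start is not the outermost, and the whole stretch lies within the gene. For Atp5g1 (chr11:96072793-96075694) the last bases of the stretch lie within the gene. Capitals mark matches to the NRF1 motif (GCGC, any base, then TGCGC, or its reverse complement) in Sdha, Cox6a1 and Atp5h, to the GABPA motif CCGGAAGT (read on the other strand as ACTTCCGG) in Uqcrh, and to the ERR alpha motif TCAAGGTCA (read on the other strand as TGACCTTGA) in Atp5g3.
Sdha, chr13:74350281-74350308, minus strand: ggaggggcgtgttGCGCAGGCGCagaat
Cox6a1, chr5:115348982-115349128, minus strand: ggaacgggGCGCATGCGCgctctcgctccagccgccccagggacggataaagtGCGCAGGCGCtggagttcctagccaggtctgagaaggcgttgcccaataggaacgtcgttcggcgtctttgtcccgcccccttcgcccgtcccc
Atp5h, chr11:115419963-115420069, minus strand: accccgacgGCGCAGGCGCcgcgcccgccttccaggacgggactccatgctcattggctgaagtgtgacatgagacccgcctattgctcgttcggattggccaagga
Uqcrh, chr4:116075072-116075190, minus strand: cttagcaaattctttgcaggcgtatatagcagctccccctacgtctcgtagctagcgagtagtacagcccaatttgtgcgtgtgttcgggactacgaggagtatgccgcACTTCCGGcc
Atp5g3, chr2:73911327-73911446, minus strand: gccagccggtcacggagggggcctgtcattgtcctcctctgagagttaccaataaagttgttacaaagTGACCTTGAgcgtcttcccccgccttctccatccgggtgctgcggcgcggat
Atp5g1, chr11:96075671-96075751, minus strand: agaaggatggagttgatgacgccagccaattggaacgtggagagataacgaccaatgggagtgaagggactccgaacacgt

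In windows from 250 bases before to 50 bases after the start, available for 32 of the 41 genes, 4 motifs were searched on both strands. NRF1 matches were in 10 of the 32 (31.25%), against 5.19% of the 27025 genes with a window. GABPA matches were in 4 (12.5%, against 4.31%), YY1 matches (AAGATGGC) in 3 (9.38%, against 3.19%) and ERR alpha matches in 2 (6.25%, against 0.466%). At least 1 of the 4 motifs was in windows of 16 of the 32 genes, against 12.1% of all genes. The genes compared were not limited to those expressed here or matched for GC content. Whether the higher shares are particular to these subunits was therefore not tested. The median log2 fold change in WAT was -1.42 for the genes with an NRF1 match and -1.38 for those without, and in culture it was 0.26 and 0.34. With and without a GABPA match it was -1.57 and -1.38 in WAT and 0.48 and 0.29 in culture, with and without a YY1 match -0.96 and -1.39 in WAT and 0.33 and 0.29 in culture, and with and without an ERR alpha match -1.08 and -1.39 in WAT and 0.20 and 0.32 in culture. A match is a description of letters, not of binding.

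WAT libraries held 28844370 to 33997204 counts and culture libraries 10863158 to 21773610, with KO culture replicates 2 and 3 deeper than the WT cultures. Levels are CPM, counts relative to the library total after TMM scaling within each table, so a level in WAT is not on the same scale as one in culture unless stated. Fam50a, the gene for XAP5, was at 35.3, 32.5 and 36.5 CPM in WT WAT and at 23.3, 16.8 and 28.9 in cKO WAT, and at 57.9, 52.0 and 45.2 in WT and 46.2, 42.9 and 41.1 in KO cultures, where the groups overlap. Defining adipocyte markers were present in every group: Adipoq stood at 4609, 5370.0 and 5041 CPM in WT WAT, 908, 1931 and 614 in cKO WAT, 2118, 2003 and 1967 in WT culture and 3036, 2719.8 and 2662 in KO culture. Libraries of WAT differed from each other in markers of other tissues. The summed level of 12 skeletal muscle markers was 34.3, 238 and 2261 CPM in WT WAT and 1602, 280.5 and 51.8 in cKO WAT. Epithelial markers stood out in cKO replicate 3, where Krt18 was at 222 CPM against 0 and 0.393 in the other cKO libraries.

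Together the 41 genes took 2.77% ± 0.276 (SD, n = 3) of all counts in WT WAT and 1.50% ± 0.488 in cKO WAT. In cKO WAT the level fell for 37 of the 41 genes and rose for 0 (edgeR, adjusted p under 0.05), where 24.2% of the 16293 genes tested were called lower and 28.2% higher. No gene of the set was higher at an unadjusted p under 0.05, and DESeq2 and limma voom also called 0 higher. The median log2 fold change was -1.39, against 0.12 over all genes tested. The 3 cKO libraries lay below the 3 WT libraries for 39 of the 41 genes, which was so for 29.3% of all genes, and lay above them for none (35.1% of all genes). The groups overlapped for Cycs and Atp5g1. Medians by complex were -1.63 for complex II, -1.60 for complex III, -1.42 for complex IV and -1.19 for complex V. The 4 genes that did not pass were Cycs, Atp5g1, Atp5k and Atp5mpl. In bulk tissue, fewer cells of a type and less RNA per cell cannot be told apart.

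Most genes stayed lower in WAT when libraries were scaled by their totals alone, but the values were smaller and Cycs turned positive. This scaling raised the median of all genes by 0.68 on the log2 scale, with 1427 genes lower and 8838 higher in place of 3947 and 4595, and left 27 of the 41 lower (8.76% of all genes) and 1, Atp5g1, higher (54.2% of all genes), with a median of -0.72. The 10 genes whose call in WAT it ended were Uqcrb, Uqcrh, Cox6b1, Cox7b, Cox7c, Atp5g3, Atp5j, Atp5l, Atp5md and Atp5pb. Removing a trend in transcript length and GC content gave 4675 genes lower (28.7%) and 2962 higher (18.2%), and of the 41 it gave 38 lower and Atp5g1 higher. Among the libraries left out in turn, WT WAT replicate 1 and cKO WAT replicate 1 cost the most calls, 5 each.

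**Figure D1:**
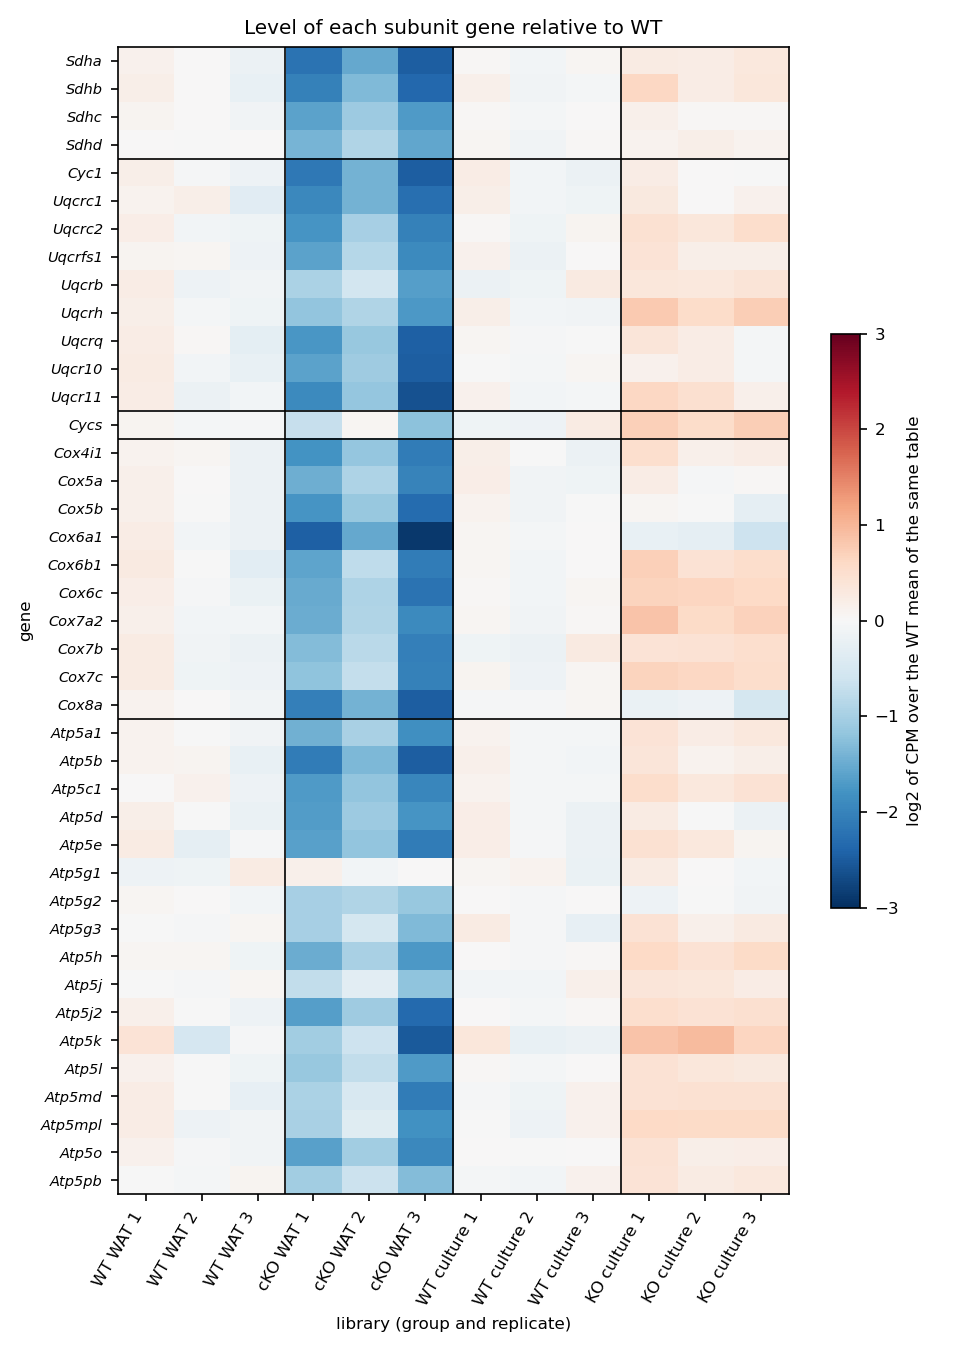
Level of each of the 41 genes (rows, by complex) in each of the 12 libraries (columns), as log2 of CPM over the mean of the 3 WT libraries of the same table. The cKO WAT columns are below WT for nearly all rows, with replicate 3 lowest for 40 rows and Atp5g1 near 0, and the KO culture columns are slightly above WT for most rows.

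The share of counts in culture was 2.15% ± 0.126 (SD, n = 3) for WT libraries and 2.50% ± 0.171 for KO libraries. In KO cultures 21 of the 41 rose and 1, Cox6a1, fell, where 8.94% of the 12587 genes tested were called higher and 10.6% lower. The median log2 fold change was 0.31, against -0.02 over all genes, and called changes ran from -0.36 to 0.82. The 3 KO libraries lay above the 3 WT libraries for 25 genes (18% of all genes) and below for 2 (18.8% of all genes). The members called higher were 1 of 4 in complex II, 4 of 9 in complex III, 5 of 10 in complex IV, 10 of 17 in complex V, and Cycs. Among those of complex V, Atp5j and Atp5pb rose by 0.31 and 0.33 (adjusted p = 0.0468 and 0.0377). Both calls were lost with library totals alone (adjusted p = 0.102 and 0.0810) and when any library except WT culture replicate 3 was left out. They held in 10 and 11 of 18 alternatives (ranges 0.00630 to 0.330 and 0.00688 to 0.247).

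The biological coefficient of variation was 0.114 in culture and 0.319 in WAT, and 1 fit over all 4 groups, which shares 1 estimate, called 0 of the 41 in either direction, with a median of 0.32. In that fit 0.401% of all genes were called higher and 0.608% lower at the adjusted threshold. At an unadjusted p under 0.05, 10 of the 41 were higher, and the share of all genes at that unlike threshold was not counted. On the cultures alone, DESeq2 called 23 higher (9.67% of all genes) and limma voom 21 (9.12%). Without WT culture replicate 2 the count of higher genes was 10 (3.13% of all genes). Removing the trend in length and GC gave 15 higher (11%) and 3 lower (9.28%), with a median of 0.19. Scaling by totals alone gave 16 higher (6.24%) and 2 lower (14%), where all genes gave 786 and 1765 in place of 1125 and 1334.

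The effect in WAT was tested against that in culture as an interaction over all 12 libraries. This fit shares 1 estimate of the spread, with a biological coefficient of variation of 0.227, where WAT alone had 0.319 and culture 0.114. Its p-values may therefore be too small for the WAT part. The effect was more negative in WAT for 40 of the 41 genes, where 21.1% of the 14463 genes tested were called so, and more positive for 0 (27.7% of all genes). None of the 41 was more positive at an unadjusted p under 0.05, or with DESeq2 or limma voom. With library totals alone the count was 33 more negative (8.28% of all genes) and 1, Atp5g1, more positive (50.7% of all genes), with a median of -1.07 in place of -1.72. The 7 genes whose call it ended were Cycs, Uqcrb, Atp5g2, Atp5g3, Atp5j, Atp5md and Atp5mpl. After removal of the length and GC trend 38 were more negative (29.1%) and Atp5g1 more positive (18%), and the calls of Atp5g2 and Atp5j were lost. Of the 41, 18 were lower in WAT and higher in culture, 18 were called in WAT alone, 3 (Cycs, Atp5k and Atp5mpl) in culture alone, 1 (Cox6a1) was lower in both, and 1 (Atp5g1) was called in neither. These classes were counted for the 41 genes only, so how common they are over all genes is not known. Taken singly, 24.2% of all genes were lower in WAT and 8.94% higher in culture.

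**Figure D2:**
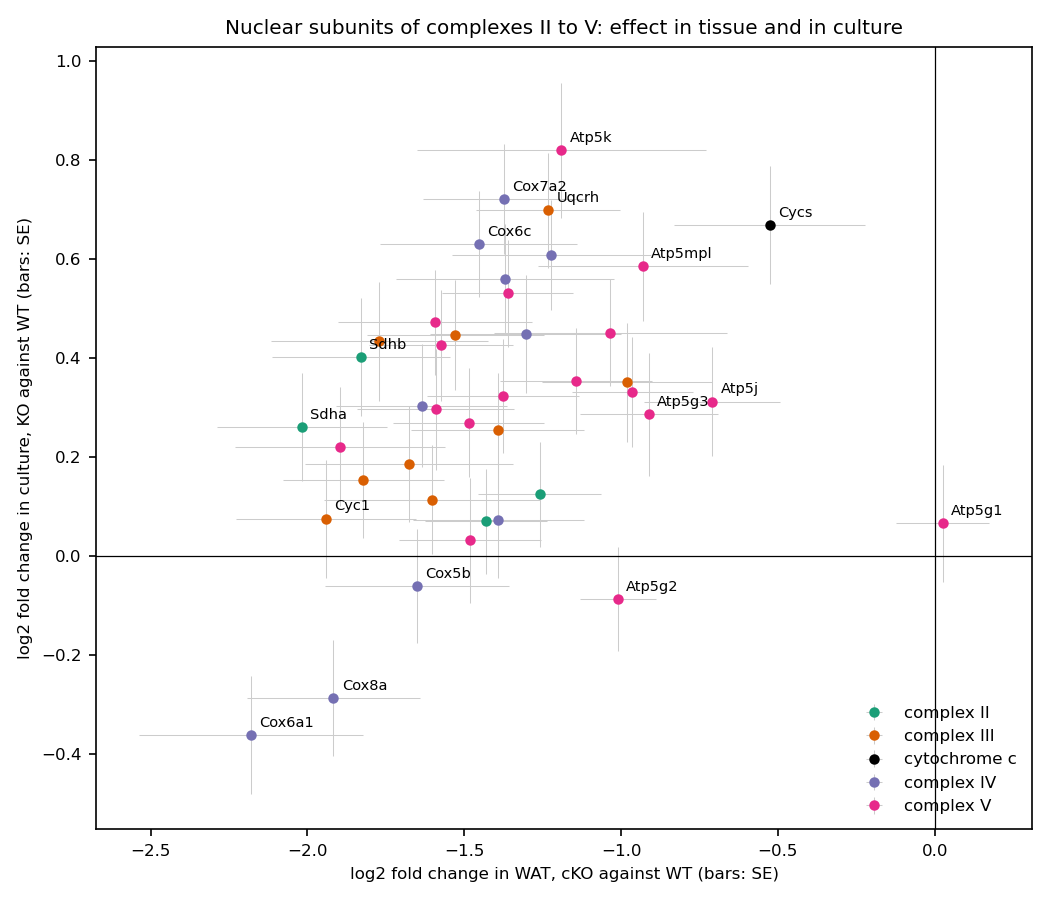
Log2 fold change of each gene in WAT (x axis, cKO against WT) and in culture (y axis, KO against WT), with bars for the SE and colours for the complex. Most points lie in the upper left, Atp5g1 lies near the origin at 0.03 and 0.07, and Cox6a1 has the most negative value on both axes, at -2.18 and -0.36.

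Complex II carried the largest median fall in WAT, and all 4 of its genes were lower. Sdha (chr13:74322255-74350240), the flavoprotein that oxidises succinate, was at 1814, 1672 and 1454 CPM in WT and 356, 567 and 297 in cKO WAT. All cKO libraries lay far below all WT libraries. Its log2 fold change was -2.02 (SE 0.27, adjusted p = 0.00136), or 4.05-fold lower. Sdhc, a membrane anchor that binds ubiquinone, was at 680.5, 653 and 599 CPM in WT and 213, 304 and 199 in cKO WAT, a change of -1.43 (SE 0.19, adjusted p = 0.0014). Sdhb, the iron-sulfur subunit, and Sdhd, the other anchor, changed by -1.83 and -1.26.

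In culture, Sdhb alone passed among the genes of complex II. It was at 438, 370.0 and 379 CPM in WT and 606, 466 and 497 in KO, with every KO library above every WT library, and a change of 0.40 (SE 0.12, adjusted p = 0.0207). That call was lost without WT culture replicate 2 (adjusted p = 0.116) and without KO culture replicate 1 (adjusted p = 0.124), over a range of adjusted p from 0.000241 to 0.328 across the alternatives. Sdha was at 824, 765 and 836 CPM in WT and 963, 936 and 1006 in KO culture, a change of 0.26 (adjusted p = 0.0927) that passed without WT culture replicate 3 (adjusted p = 0.0431) and after removal of the length and GC trend (0.25, adjusted p = 0.0226, range 0.00758 to 0.488). The WAT effect minus the culture effect was -2.25 (SE 0.28, adjusted p = 5.69e-05) for Sdha, the most negative difference of the 41, and -1.47 (SE 0.21, adjusted p = 0.000135) for Sdhc.

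All 9 genes of complex III were lower in WAT. Cyc1 (chr15:76343513-76346260), the haem protein cytochrome c1, was at 1052, 904 and 839.9 CPM in WT and 209, 351 and 168 in cKO WAT, a change of -1.94 (SE 0.29, adjusted p = 0.00183). Uqcrc1 (chr9:108936648-108949641), a core protein that faces the matrix, was at 879, 917 and 646 CPM in WT and 213, 307 and 171 in cKO WAT, a change of -1.82 (SE 0.26, adjusted p = 0.00157). Both genes had groups far apart. The table also lists a numbered copy of Uqcrc1, and summing numbered copies lost 0 of the 37 calls. The second core protein Uqcrc2 and the Rieske iron-sulfur protein Uqcrfs1 changed by -1.53 and -1.39, and the 5 small supernumerary subunits by -0.98 (Uqcrb) to -1.77 (Uqcr11). The call of Uqcrb was lost without WT WAT replicate 1 (adjusted p = 0.0664) or cKO WAT replicate 1 (0.0556), and with library totals alone (-0.31, adjusted p = 0.315, range 0.000890 to 0.315).

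Uqcrh, the hinge protein next to cytochrome c1, had the largest rise of complex III in culture. It was at 475, 400.0 and 390.1 CPM in WT and 732, 619 and 701 in KO culture, and all KO libraries were above all WT libraries. Its change was 0.70 (SE 0.12, adjusted p = 0.0003). Uqcrc2 was at 528, 468 and 538 CPM in WT and 708, 645 and 739 in KO culture, a change of 0.45 (SE 0.11, adjusted p = 0.0072). The call of Uqcrc2 was lost without WT culture replicate 2 (adjusted p = 0.0717) and after removal of the length and GC trend (adjusted p = 0.0778), over a range of 0.000287 to 0.263. Uqcrb and Uqcr11 also passed, at 0.35 and 0.43. Both calls were lost without WT culture replicate 2 (adjusted p = 0.201 and 0.0826), KO culture replicate 1 (0.0802 and 0.0864) or KO culture replicate 2 (0.0972 and 0.0653), and that of Uqcrb also without WT culture replicate 1 (0.177) or KO culture replicate 3 (0.0808). After removal of the length and GC trend Uqcrb turned to -0.08 (adjusted p = 0.497, range 0.00115 to 0.497). The genes Cyc1, Uqcrc1, Uqcrfs1, Uqcrq and Uqcr10 did not pass, at 0.07 to 0.25. In WAT Uqcrh was at 726, 616 and 586 CPM in WT and 282, 345 and 194 in cKO. It changed there by -1.23, which did not pass with library totals alone (-0.56, adjusted p = 0.0505, the highest over the alternatives, from 4.15e-07), and the WAT effect minus the culture effect was -1.90 (SE 0.26, adjusted p = 0.000107). For Uqcrc1 that difference was -1.94 (SE 0.29, adjusted p = 0.000172).

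Unlike all genes of complexes III and IV, Cycs (chr6:50562563-50566569), the small carrier between them that also takes part in apoptosis, did not pass in WAT with TMM. It was at 544, 488 and 499 CPM in WT and 317, 529 and 217 in cKO WAT. Replicate 2 of the cKO group lay within the WT range while both other cKO libraries lay below it. The change was -0.53 (SE 0.30, adjusted p = 0.182). Without cKO WAT replicate 2 it was -0.96 and passed (adjusted p = 0.00575), after removal of the length and GC trend it was -1.49, and with library totals alone it was 0.14, over a range of adjusted p from 0.00575 to 0.685. In culture Cycs was at 351, 346 and 452 CPM in WT and 628, 564 and 634 in KO, without overlap, a rise of 0.67 (SE 0.12, adjusted p = 0.000586). The difference between both effects was -1.16 (SE 0.34, adjusted p = 0.0134). With library totals alone that difference was -0.52 and did not pass (adjusted p = 0.200, range 7.84e-05 to 0.200).

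**Figure D3:**
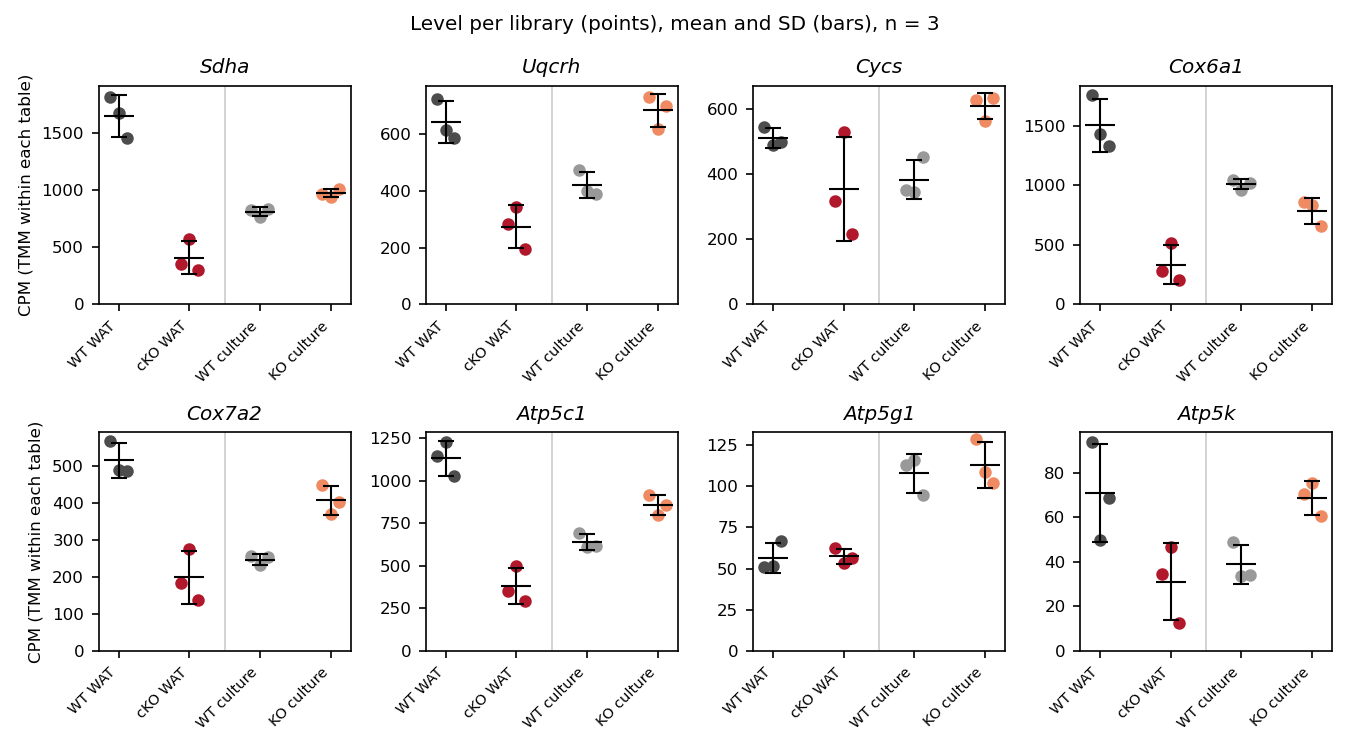
CPM of 8 of the genes in each library (points), with the mean and SD of the 3 libraries of each group (bars). WAT and culture were scaled separately, and the grey line parts them. Cycs shows 1 cKO library among the WT values, and Atp5g1 shows overlapping WAT groups.

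All 10 genes of complex IV were lower in WAT. Cox6a1 (chr5:115345652-115348958), the widely expressed form of a subunit that muscle makes from Cox6a2, had the most negative change of all 41. It was at 1753, 1429.8 and 1328 CPM in WT and 277, 517 and 201 in cKO WAT, a change of -2.18 (SE 0.36, adjusted p = 0.00263), or 4.53-fold lower. Cox8a, the widely expressed form of the smallest subunit, was at 1289, 1215 and 1114 CPM in WT and 289, 450.4 and 218 in cKO WAT, a change of -1.92 (SE 0.28, adjusted p = 0.00167). Cox4i1, which holds a regulatory adenine nucleotide site, was at 2896, 2782 and 2396 CPM in WT and 779.9, 1195 and 624 in cKO WAT, a change of -1.63. The other 7 changed by -1.65 (Cox5b) to -1.22 (Cox7c). Of these, Cox6b1 and Cox7c were lost without WT WAT replicate 1 (adjusted p = 0.05 and 0.0545), and Cox6b1 without cKO WAT replicate 1 (0.0542). With library totals alone the calls of Cox6b1 (-0.70, adjusted p = 0.0976, range 9.9e-05 to 0.0976), Cox7b (-0.64, adjusted p = 0.0876, range 4.45e-05 to 0.0876) and Cox7c (-0.55, adjusted p = 0.144, range 0.000231 to 0.144) were lost.

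In culture the genes of complex IV went both ways. Cox7a2, the widely expressed form of a subunit for which muscle and brown fat use Cox7a1, was at 257, 230.5 and 252 CPM in WT and 449, 369.8 and 401 in KO, a rise of 0.72 (SE 0.11, adjusted p = 0.000153). Cox6c, a small membrane subunit, was at 355, 327 and 363 CPM in WT and 551, 541 and 524 in KO, a rise of 0.63 (SE 0.11, adjusted p = 0.000396). Neither gene overlapped between groups. Cox6b1, Cox7b and Cox7c also rose, by 0.56, 0.45 and 0.61, and Cox7b was lost without WT culture replicate 1 (adjusted p = 0.0555) or 2 (0.0949). After removal of the length and GC trend Cox7b was at 0.07 and no longer passed (adjusted p = 0.559, range 0.000428 to 0.559), while Cox6c and Cox7c passed at 0.37 and 0.28. Cox6a1 was at 1045, 961 and 1014 CPM in WT and 858, 835 and 657 in KO, with all KO libraries below all WT libraries, a change of -0.36 (SE 0.12, adjusted p = 0.0341). That call was lost without WT culture replicate 1 (adjusted p = 0.114), WT culture replicate 2 (0.101), KO culture replicate 2 (0.0671) or KO culture replicate 3 (0.186), over a range of 0.000444 to 0.499. Cox8a was at 789, 793 and 851 CPM in WT and 706, 726 and 563 in KO, also without overlap, a change of -0.29 (adjusted p = 0.0839) that passed as lower after removal of the length and GC trend (-0.34, adjusted p = 0.0140, range 0.00317 to 0.502). With that trend removed Cox5b, at -0.06 before (adjusted p = 0.752), also passed as lower (-0.26, adjusted p = 0.0327, range 0.00898 to 0.9997). Cox4i1, at 0.30 before (adjusted p = 0.0864), passed as higher (0.27, adjusted p = 0.0210, range 0.00444 to 0.448). The WAT effect minus the culture effect was -2.06 (SE 0.28, adjusted p = 0.000104) for Cox7a2 and -1.91 (SE 0.30, adjusted p = 0.000262) for Cox4i1.

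Within ATP synthase, the 5 genes of the catalytic head and central stalk were all lower in WAT, with a median of -1.57. Atp5c1, the gamma subunit that turns inside the head, was at 1142, 1229 and 1024 CPM in WT and 349, 499.9 and 291 in cKO WAT, a change of -1.57 (SE 0.23, adjusted p = 0.00172). Atp5b, the catalytic beta subunit and the gene with the most reads of the set, was at 7444, 7401 and 5994 CPM in WT and 1614, 2729 and 1255 in cKO WAT, a change of -1.90. Each of these genes had groups that did not overlap. In culture Atp5c1 was at 690.4, 609 and 615 CPM in WT and 913, 799.6 and 858 in KO, and rose by 0.42, a call lost without WT culture replicate 2 (adjusted p = 0.0723) and after removal of the length and GC trend (0.22, adjusted p = 0.0647, range 0.000531 to 0.197). Of the other 4, Atp5a1, the alpha subunit, passed there, at 0.32 (adjusted p = 0.0486). It did not pass in 9 of 18 alternatives, among them each of the 6 that left out 1 library (adjusted p from 0.0549 to 0.192). The difference between both effects was -1.97 (SE 0.25, adjusted p = 5.96e-05) for Atp5c1.

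The c ring, which turns as protons pass, is built from 1 mature protein that Atp5g1, Atp5g2 and Atp5g3 all encode, and these 3 genes differed. Atp5g1 (chr11:96072793-96075694) was at 50.9, 51.5 and 66.9 CPM in WT and 62.4, 53.4 and 56.6 in cKO WAT, and the groups overlap. Its change was 0.03 (SE 0.15, adjusted p = 0.891), with a range over the alternatives of -0.05 to 0.71. Atp5g2 was at 305, 294 and 278 CPM in WT and 147, 156 and 133 in cKO WAT, without overlap. Its change of -1.01 (SE 0.12, adjusted p = 0.00098) had the smallest p of complex V. Atp5g3 was at 1048, 1029 and 1104 CPM in WT and 531, 738 and 423 in cKO WAT, a change of -0.91 (SE 0.22, adjusted p = 0.0118) that was lost without cKO WAT replicate 1 (adjusted p = 0.0523) and with library totals alone (-0.24, adjusted p = 0.334), over a range of 8.22e-05 to 0.334. These 3 genes share the mature protein but differ in their transcripts. Processed pseudogenes exist for many genes of the set, so some reads may be assigned to a copy.

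In culture none of these 3 genes passed, also with DESeq2 and limma voom, and Atp5g3 alone had an unadjusted p under 0.05 (0.0299). Atp5g1 was at 113, 116 and 94.3 CPM in WT and 129, 108 and 102 in KO, a change of 0.07 (adjusted p = 0.738). Atp5g2 was at 155, 150.5 and 155 CPM in WT and 139, 151 and 143 in KO, a change of -0.09 (adjusted p = 0.599). Atp5g3 was at 568, 470.1 and 403 CPM in WT and 645, 537 and 576 in KO, a change of 0.29 (adjusted p = 0.106) that passed without WT culture replicate 1 (adjusted p = 0.0357). The WAT effect differed from the culture effect by -0.89 (SE 0.14, adjusted p = 0.00027) for Atp5g2, by -1.16 (SE 0.27, adjusted p = 0.00303) for Atp5g3 and by -0.01 for Atp5g1, the least of the 41, which did not pass. The difference no longer passed for Atp5g2 with library totals alone (-0.24, adjusted p = 0.147) or after removal of the length and GC trend (-0.35, adjusted p = 0.0581, range 1.54e-10 to 0.147). For Atp5g3 it no longer passed with library totals alone (-0.52, adjusted p = 0.0855, range 3.77e-05 to 0.0855). Atp5g1 passed as more positive in both fits, at 0.65 and 0.48 (adjusted p = 0.0105 and 0.0349, range 0.0105 to 1.00).

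Per kilobase of transcript, Atp5g1 made up 3.81%, 3.94% and 4.90% of the summed level of the 3 genes in WT WAT, and 8.85%, 6.08% and 9.61% in cKO WAT. It made up 14.2%, 16.3% and 14.7% in WT culture and 15.0%, 14.2% and 13.1% in KO culture. Atp5g3 held the largest share in all 12 libraries, from 52.6% to 70.0%.

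**Figure D4:**
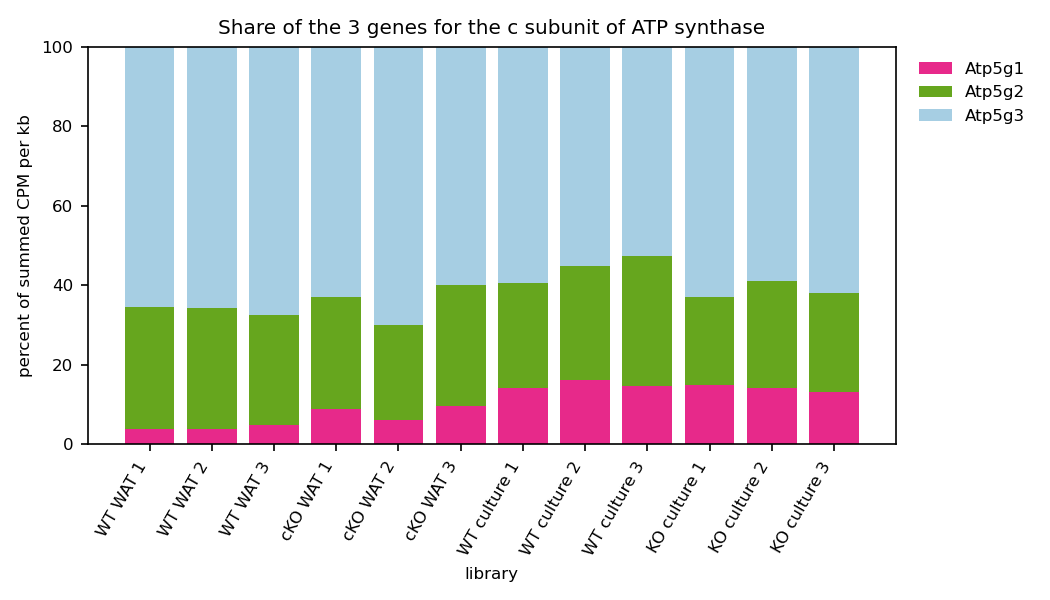
Share of the summed CPM per kilobase of Atp5g1, Atp5g2 and Atp5g3 that each gene took, in each of the 12 libraries. The Atp5g1 segment is 3.81% to 4.90% in WT WAT, 6.08% to 9.61% in cKO WAT and 13.1% to 16.3% in the cultures.

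The peripheral stalk holds the head still against the turning ring, and its 4 genes fell in WAT, with changes of -0.71 (Atp5j) to -1.49 (Atp5o). The call of Atp5j was lost without WT WAT replicate 1 (adjusted p = 0.0686), 2 (0.0754) or 3 (0.0817) or cKO WAT replicate 1 (0.084). It was also lost after removal of the length and GC trend (-0.33, adjusted p = 0.188) and with library totals alone (-0.04, adjusted p = 0.880), and held in 9 of 16 alternatives (range 0.00369 to 0.880). Atp5h, the d subunit, was at 620.1, 613 and 539 CPM in WT and 210.2, 299 and 180.2 in cKO WAT, and at 380.0, 363 and 381 in WT and 566, 503 and 554 in KO culture. The groups did not overlap in tissue or in culture. Its changes were -1.36 and 0.53, and their difference was -1.86 (SE 0.23, adjusted p = 5.2e-05), the smallest p of the 41 for a difference. Of the small membrane subunits, which help ATP synthase pair into dimers that bend the membrane, Atp5j2, Atp5l and Atp5md were lower in WAT. Atp5k and Atp5mpl did not pass there, at -1.19 (adjusted p = 0.0638) and -0.93 (adjusted p = 0.0505). Both passed without cKO WAT replicate 2 (adjusted p = 0.0296 and 0.00743). Over 16 alternatives Atp5mpl passed in 9, removal of the length and GC trend among them (-1.32, adjusted p = 0.00240, range 0.00240 to 0.494), and Atp5k in 4, DESeq2 and limma voom among them (range 0.0106 to 0.332). The call of Atp5md (adjusted p = 0.0498) held in 10 of 16 alternatives and was lost without WT WAT replicate 1 (0.137), 2 (0.119) or 3 (0.0758) or cKO WAT replicate 1 (0.103), and with library totals alone (-0.37, adjusted p = 0.391, range 0.00327 to 0.391). That scaling also ended the call of Atp5l (-0.47, adjusted p = 0.103, range 1.27e-05 to 0.103).

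All 5 small membrane subunits rose in culture. Atp5k (chr5:108433246-108434399), the e subunit, had the largest rise of the 41. It was at 48.9, 33.5 and 34.2 CPM in WT and 70.2, 75.1 and 60.5 in KO culture, without overlap, a change of 0.82 (SE 0.14, adjusted p = 0.000325). Atp5mpl, a small proteolipid of the complex, was at 115, 104 and 126 CPM in WT and 175, 172 and 172 in KO culture, a change of 0.58 (SE 0.11, adjusted p = 0.000869). After removal of the length and GC trend Atp5mpl was at 0.13 and no longer passed (adjusted p = 0.246, range 3.13e-06 to 0.246). Atp5l was at 0.07 after that removal, against 0.35 before it, and no longer passed (adjusted p = 0.542). The call of Atp5l held in 10 of 18 alternatives (range 0.00229 to 0.542) and was also lost with library totals alone (adjusted p = 0.0527) and without WT culture replicate 1 (0.0506) or 2 (0.119) or KO culture replicate 1 (0.0761) or 2 (0.074). Atp5md was at 0.03, against 0.45, and no longer passed (adjusted p = 0.809, range 0.000357 to 0.809). Its call was also lost without WT culture replicate 2 (adjusted p = 0.062). In WAT, Atp5k was at 93.9, 49.7 and 68.8 CPM in WT and 34.4, 46.4 and 12.3 in cKO, and its cKO libraries lay below the WT libraries.

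Across the 41 genes, the log2 fold change was related to GC content with a Pearson r of -0.36 in WAT and -0.50 in culture, where r over all genes was -0.25 and -0.32. These values describe genes that share libraries and have no test.

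Levels between genes were compared per kilobase of transcript, with all 12 libraries on 1 scale. In WT WAT Atp5b was highest at 3754 ± 458 CPM per kilobase (SD, n = 3), followed by Cox4i1 at 3740 ± 377, and these 2 neighbours did not differ beyond their spread. Cox6a1 (2726 ± 410), Cox8a (2270 ± 173) and Uqcrq (1591 ± 278) came next, and Atp5g1 was lowest at 98.0 ± 15.4. In WT culture the order began with Cox6a1 at 1967 ± 83.4, Atp5b at 1804 ± 167 and Cox4i1 at 1757 ± 215, neighbours whose SDs overlap, and Sdhc was lowest at 103 ± 3.18. The levels in WT WAT and WT culture had a Pearson r of 0.89 and a Spearman rho of 0.86 on the log2 scale over the 41 genes. In cKO WAT Cox4i1 (1238 ± 418) and Atp5b (1037 ± 424) led, again within their spread, and Atp5g3 moved from rank 6 in WT WAT to rank 3 at 841 ± 236.

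Among cKO WAT libraries, replicate 2 was highest for 40 of the 41 genes and replicate 3 lowest for 40, where over all genes these shares were 38.9% and 37.5%. The summed level of the 41 genes was 38299, 35343 and 31493 CPM in WT WAT and 10906, 16569 and 8305 in cKO WAT. Adipoq followed the same order among the cKO libraries, at 908, 1931 and 614 CPM. Without cKO replicate 2 the median change was -1.75 with 40 genes lower (25.3% of all genes), and without cKO replicate 3 it was -1.20 with 37 lower (21.7%). In KO culture replicate 1, the shallowest library, 30 of the 41 genes had their highest level of the group, which was so for 38.3% of all genes. With all cultures thinned to the smallest total 20 genes were called higher (8.83% of all genes).

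Assembly factors, which insert cofactors and join subunits, were lower in WAT for 24 of 34 tested (24.2% of all genes) and the other 10 did not pass, with a median of -0.84. Surf1, needed to build complex IV, was at 103, 116 and 106 CPM in WT and 44.1, 49.3 and 39.2 in cKO WAT, a change of -1.29 (SE 0.13, adjusted p = 0.000649). Bcs1l, which inserts the Rieske protein into complex III, changed by -1.40 (SE 0.15, adjusted p = 0.00073). In culture 7 of 35 were higher (8.94% of all genes) and the rest did not pass, with a median of 0.22, the smallest p being those of Cmc1 at 0.71 (SE 0.12, adjusted p = 0.000481) and of the copper chaperone Cox17 at 0.58 (SE 0.12, adjusted p = 0.00227). The difference between both effects was called as more negative in WAT for 25 of 35 (21.1% of all genes), Surf1 (-1.23) and Cmc1 (-1.70) among them.

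Of the import, chaperone and cristae genes, 14 of 20 were lower (24.2% of all genes) and 1 higher (28.2%) in WAT, with a median of -0.55, and 9 of 20 were higher in culture (8.94%), with a median of 0.30. The prohibitin Phb2 changed in WAT by -1.10 (SE 0.14, adjusted p = 0.00108) and the cristae organiser Immt by -1.50 (SE 0.21, adjusted p = 0.00143). In culture the chaperonin Hspe1 rose by 0.61 (SE 0.11, adjusted p = 0.0005) and the import motor protein Timm44 by 0.56 (SE 0.11, adjusted p = 0.00177). The difference was more negative in WAT for 15 of 20 (21.1% of all genes), with Phb at -1.55 and Immt at -1.63.

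Of 14 regulators of respiratory gene transcription, 4 were lower (24.2% of all genes) and 3 higher (28.2%) in WAT, with a median of 0.05, and of 12 tested in culture 1 was lower (10.6%) and 3 higher (8.94%), with a median of 0.04. Esrra, which encodes ERR alpha, was at 147, 147 and 132 CPM in WT and 67.9, 76.5 and 63.8 in cKO WAT, a change of -1.03 (SE 0.12, adjusted p = 0.00095). Pprc1, a PGC-1 related coactivator, changed by 0.98 (SE 0.18, adjusted p = 0.00378) in WAT and by -0.45 (SE 0.12, adjusted p = 0.0107) in culture, and the difference was 1.46 (SE 0.21, adjusted p = 0.000143). Nrf1 did not pass, at 0.04 in WAT and 0.05 in culture, and neither did Ppargc1a, at -0.02 and 0.59. Gabpa and Gabpb1 rose in WAT by 0.94 and 0.67, and the difference for Gabpb1 was 0.91. In culture Tfb2m, a mitochondrial transcription factor, rose by 0.72 (SE 0.13, adjusted p = 0.000525).

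Of 7 tissue-type isoforms and isoform-switch subunits tested, 4 were lower in WAT (24.2% of all genes), with a median of -1.14, and 2 were higher in culture (8.94%), with a median of 0.03. Cox8b, an isoform of muscle and brown fat, was at 345, 217 and 183 CPM in WT and 37.1, 77.7 and 11.8 in cKO WAT, a change of -2.56 (SE 0.63, adjusted p = 0.0124). Ndufa4, an isoform-switch subunit of complex IV, changed by -1.59 (SE 0.31, adjusted p = 0.00513) and Cox4i2, a lung-type isoform, by -1.14 (SE 0.22, adjusted p = 0.00504). In culture Cox8b, at 16.8, 10.0 and 13.5 CPM in WT and 26.1, 26.2 and 22.8 in KO, rose by 0.90 (SE 0.16, adjusted p = 0.000661), and Ndufa4 rose by 0.50 (SE 0.11, adjusted p = 0.00372). The difference was -2.06 for Ndufa4 and -3.42 for Cox8b.

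Atpif1, which inhibits ATP synthase when it runs backwards, moved opposite to the subunits in both systems. It was at 25.6, 27.8 and 27.0 CPM in WT and 56.4, 43.0 and 57.4 in cKO WAT, a rise of 0.96 (SE 0.14, adjusted p = 0.00192). In culture it was at 91.0, 115 and 104 CPM in WT and 86.2, 87.8 and 71.2 in KO, without overlap but close together, a change of -0.34 (SE 0.12, adjusted p = 0.0469). The difference was 1.34 for Atpif1 and -0.80 for Slc25a4. The adenine nucleotide carriers Slc25a5 and Slc25a4 and the phosphate carrier Slc25a3 fell in WAT, with a change of -1.08 (SE 0.20, adjusted p = 0.00439) for Slc25a5. None of the 3 carriers passed in culture, where Slc25a4 was at 0.30 (SE 0.11, adjusted p = 0.0521).

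Subunits encoded by mitochondrial DNA were analysed in culture only, where 5 of 6 rose (8.94% of all genes), with a median of 1.35. Their summed level was 55276, 57415 and 76977 CPM in WT and 75104, 92456 and 99772 in KO, and the groups overlap. COX2 was at 281, 206 and 361 CPM in WT and 476, 1664 and 1374 in KO, a change of 2.05 (SE 0.26, adjusted p = 1.58e-05). Its KO replicate 1 lay far closer to the WT libraries than KO replicates 2 and 3 did, which are the deeper libraries. COX3 changed by 1.83 (SE 0.29, adjusted p = 0.000186), and ATP8 did not pass. Removing all mitochondrially encoded genes before scaling gave 21 of the 41 nuclear genes higher (9.56% of all genes) and 1 lower (9.97%).

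**Figure D5:**
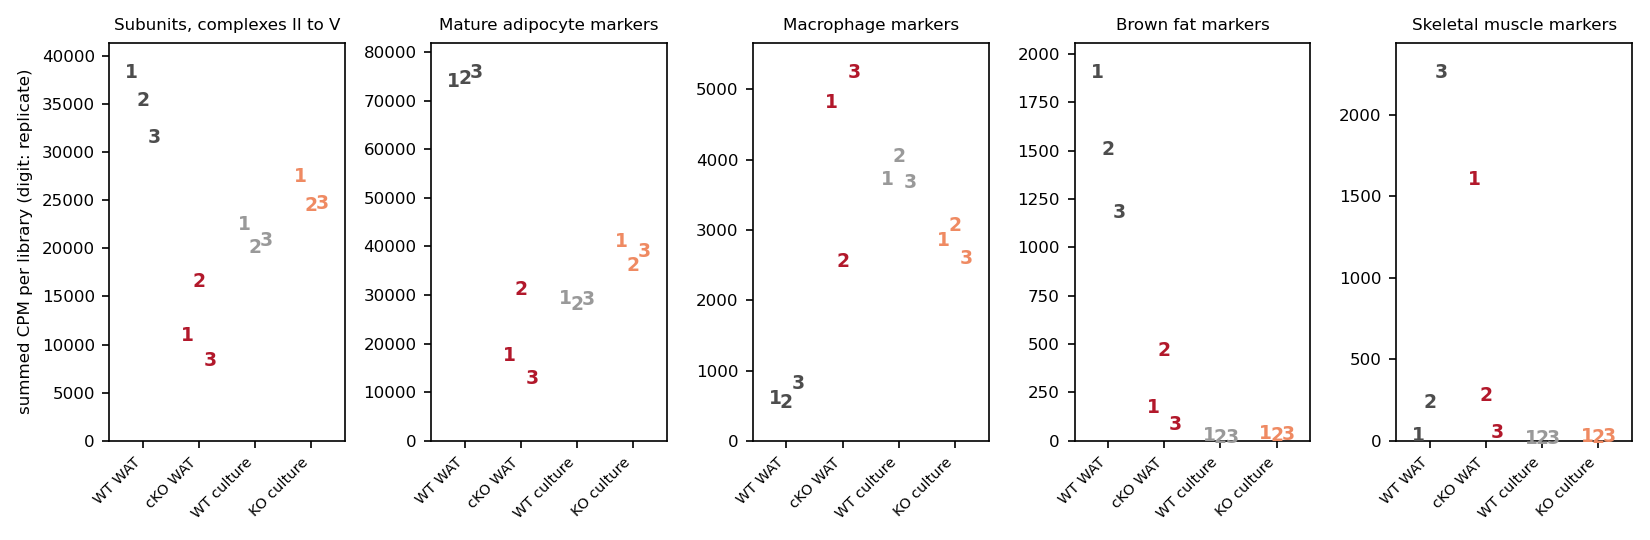
Summed CPM of the 41 genes and of 4 marker lists in each library, with the digit giving the replicate and a separate vertical scale in each panel. In WAT the 41 genes, the adipocyte markers and the brown fat markers are lower in all cKO libraries, and the macrophage markers are higher.

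Markers of several cell types changed as well, where 24.2% of all genes were lower and 28.2% higher in WAT, and 10.6% lower and 8.94% higher in culture. In WAT the summed level of 14 mature adipocyte markers was 73919.7, 74484 and 75894 CPM in WT and 17474, 31178 and 12859 in cKO, and 11 of 14 were lower, among them Cfd (-5.02) and Adig (-2.37). All 12 macrophage markers were higher, with sums of 546 to 822 CPM in WT and 2555 to 5246 in cKO, among them Trem2 (7.08) and Msr1 (4.41). All 7 fibroblast markers were higher, among them Lum (3.05) and Dcn (2.39), and 5 of 6 endothelial markers were lower, among them Cldn5 (-1.45) and Cdh5 (-1.07). Of 5 brown fat markers tested 2 were lower, Kcnk3 (-2.24) and Cidea (-2.92), and Dio2 was higher (2.89), with sums of 1180.3 to 1906 CPM in WT and 85.9 to 469 in cKO. Skeletal muscle sums ranged from 34.3 to 2261 CPM in WT and from 51.8 to 1602 in cKO, with Myh1 (5.48) as the 1 muscle marker called, and Myh2 was at 3.38. Among lymphocyte markers Cd79b was called higher (1.53) and Cd3e was not (-1.01), and none of 3 epithelial markers tested was called, with Epcam at 4.16 and Krt8 at 4.59. The part of these cells in the levels of the 41 genes was not tested. Without cKO WAT replicate 3, the library with epithelial markers, 37 genes were lower (21.7% of all genes). Without WT WAT replicate 3 or cKO WAT replicate 1, those with the highest muscle sums, 35 (19.4%) and 32 (18.6%) were lower.

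In culture 7 of 13 adipocyte markers were higher in KO and 1 was lower, with sums of 29200.0, 28081 and 29028 CPM in WT and 41104, 36156 and 38899 in KO. Fabp4 (0.89) and Pparg (0.52) rose and Plin4 fell (-0.31). Of 12 macrophage markers 5 were lower, among them C1qa (-0.75) and Cd68 (-0.71), with sums of 3680.5 to 4047 CPM in WT and 2593 to 3059.8 in KO. Of 6 endothelial markers 2 were lower, Cdh5 (-0.64) and Kdr (-0.42). Among fibroblast markers Col1a1 fell (-0.71) and Lum rose (0.43). Of the brown fat markers Cidea (2.09) and Elovl3 (1.29) rose from sums of 16.6 to 26.4 CPM in WT to 26.4 to 36.0 in KO, and of the muscle markers Mb (1.09) rose and Acta1 was at 0.27. Epithelial and lymphocyte markers were too low to test. The part of the adipocyte markers in the rise of the subunits was not tested.

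For these markers too the WAT effect was set against that in culture. The difference was -4.87 for Cfd and -1.73 for Pparg among adipocyte markers, 7.55 for Trem2 and 4.41 for Msr1 among macrophage markers, and 2.65 for Lum and 2.62 for Col1a1 among fibroblast markers. It was -4.99 for Cidea, -1.97 for Kcnk3 and -0.92 for Cldn5, and all of these passed. Among muscle, epithelial and lymphocyte markers none passed, with the smallest p for Myh1 (5.18), Myh2 (3.37), Epcam (3.77), Krt8 (4.63), Cd79b (5.16) and Cd79a (-2.42), nor did the endothelial Tie1 (-0.54).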

How the data were processed

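Per the labels' protocols, RNA was extracted in TRIzol and libraries were made by an MGIEasy mRNA kit. The deposited values are whole-number counts of reads per gene, not normalized, with WAT and cultures in separate tables. FastQC 0.11.2, cutadapt 1.11, HISAT2 2.1.0 and GRCm38 are named in the submitters' processing notes without a role, and the counting tool, annotation and strand setting are not stated there. Overlapping genes, antisense genes and near-identical copies may therefore share reads. No row lacked a gene name, and no sample column was left out. No library was taken for a duplicate, as chi-square divided by its degrees of freedom ran from 4.81 to 202 within groups.

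Both comparisons used the quasi-likelihood test (edgeR 4.0.16, R 4.3.3), each on its own 6 libraries. Low genes were removed by filterByExpr (minimum count 10), and TMM set the scale. Benjamini-Hochberg adjustment covered all genes tested, with a threshold of 0.05. The SE is the log2 fold change divided by the square root of F. The difference of both effects was an interaction over 12 libraries and the genes of both tables (biological coefficient of variation 0.227). Alternatives were RLE factors, library totals alone, no filter, the replicate number as a block, removal of a length and GC trend, each library left out, 1 fit over 4 groups, DESeq2 1.42.0, limma 3.58.1 voom, summed numbered copies and thinned cultures. Removal of mitochondrially encoded genes was added after the data were seen. Fits were also run on simulated data in which few genes changed, in both directions, so that run cannot test the scaling used in WAT.

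Members and lists were chosen with earlier results of these data known. Both tables were tested separately. Full statistics go to the 2 genes per complex with the smallest p in each comparison, to Cycs, to the c-subunit genes, to the extreme changes, and to the 2 smallest p of every other list. Gene positions and promoters are RefSeq on GRCm38.p6, searched with Python 3.11.15. Lengths and GC are from GENCODE on GRCm38 and covered 87.0% of genes in WAT and 99.2% in culture.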

Additional observations from a re-analysis of the deposited data

Results flagged for a closer look

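The change between genotypes was more negative in WAT than in culture for 40 of the 41 genes (21.1% of all genes). The test was the interaction of edgeR over 12 libraries, with 1 shared estimate of the spread that is lower than that of WAT alone. Tissue and culture also differ in day (42 and 8) and in cell mix, and the parts of these in the difference cannot be told apart. The WAT effect minus the culture effect, on the log2 scale, was -2.25 for Sdha, -1.47 for Sdhc, -1.94 for Uqcrc1, -1.90 for Uqcrh and -1.16 for Cycs. It was -1.91 for Cox4i1, -2.06 for Cox7a2, -1.97 for Atp5c1 and -1.86 for Atp5h. For the genes of the c ring it was -0.89 (Atp5g2) and -1.16 (Atp5g3). Each of these 11 genes kept its call with each of the 12 libraries left out in turn. Calls were lost with library totals alone for Cycs (-0.52, adjusted p = 0.200, range 7.84e-05 to 0.200), Atp5g3 (-0.52, adjusted p = 0.0855, range 3.77e-05 to 0.0855) and Atp5g2 (-0.24, adjusted p = 0.147). The call of Atp5g2 was also lost after removal of the length and GC trend, with or without the replicate block (without it -0.35, adjusted p = 0.0581, range 1.54e-10 to 0.147).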

How the results depend on the processing

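In WAT, 16 alternatives were run. Library totals alone, removal of the length and GC trend, and that removal plus the replicate block each called 1 gene higher (Atp5g1). Over all genes these fits called 54.2%, 18.2% and 14.5% higher. Library totals alone gave a median of -0.72. Leaving out 1 library gave 32 to 40 genes lower (18.3% to 25.3% of all genes), 0 higher (20.4% to 26.3%), and medians of -1.75 to -1.20. In culture, 18 alternatives were run. The count of lower genes was 2 with library totals alone (14% of all genes) and with the replicate block (16%). It was 3 with the length and GC trend removed, without the block (9.28%) or with it (12%). It was 0 in 1 fit over 4 groups, which also called 0 higher. Over all genes that fit called 88 lower and 58 higher in place of 1334 and 1125. The median was 0.19 with the length and GC trend removed, with or without the block. Leaving out 1 library gave 10 (without WT culture replicate 2, with 498 of all genes lower and 399 higher) to 21 higher and 0 to 1 lower, with medians of 0.27 to 0.38. Over all genes these fits called 3.13% to 13.5% higher and 3.91% to 13.2% lower. For the interaction, 22 alternatives were run. Library totals alone gave 33 genes more negative in WAT (8.28% of all genes), with a median of -1.07. Atp5g1 alone was more positive in WAT with library totals alone (50.7%) and with the trend removed, without the block (18%) or with it (16.8%). Leaving out 1 library gave 40 more negative (18.3% to 22.6%) and 0 more positive (23.1% to 29.8%). Against the fit with TMM, the median of all genes moved by over 0.1 with library totals alone (0.68 in WAT, 0.65 for the interaction), with no filter in WAT (0.15) and after removal of the length and GC trend (-0.22 in WAT, -0.34 for the interaction). The cause of these shifts was not tested.

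Among called genes, Uqcrb in culture turned to -0.08 with the trend removed. Of the genes given in full, Cycs and Atp5g1 turned. Cycs in WAT was 0.14 with library totals alone. Atp5g1 in WAT was -0.0282 with RLE factors and -0.0283 with DESeq2, and -0.0540 to 0.165 with 1 library left out. In culture Atp5g1 was -0.0022 with the trend removed, -0.0017 with the block as well, and -0.0348 to 0.137 with 1 library left out. Its difference was 0.65 with library totals alone, 0.48 with the trend removed, 0.49 with the block as well, 0.0030 with limma voom, 0.0029 with copies summed, and -0.0829 to 0.129 with 1 library left out.

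Same-numbered libraries did not deviate together in WAT (correlations of -0.354, 0.0206 and -0.213). In culture the correlations were positive (0.244, 0.0459 and 0.289), and whether the numbers pair those libraries is not settled. The numbers were not taken to pair libraries in either system. With the replicate block, 38 genes were lower in WAT (21.4% of all genes), and 27 were higher (14.4%) and 2 lower (16%) in culture. For the interaction 40 were more negative in WAT (20.5%). The 41 genes took at least 239227 counts in each library, and with 3 libraries a group their spread limits the precision.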

Other observations

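Tomm70a, a receptor of the import machinery, passed as higher in both systems, at 0.59 (SE 0.15, adjusted p = 0.0143) in WAT and 0.38 (SE 0.11, adjusted p = 0.0155) in culture. Cox7a2l, a factor that joins complexes III and IV into larger assemblies, was at 298, 305 and 287 CPM in WT and 246, 251 and 239.7 in cKO WAT, a change of -0.27 (SE 0.11, adjusted p = 0.0782) that did not pass. Tfam, which packages and transcribes mitochondrial DNA, did not pass in WAT at -0.04 (SE 0.14, adjusted p = 0.81) and rose in culture by 0.48 (SE 0.13, adjusted p = 0.0146). These 3 genes were chosen after their values were seen.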
